A study of Mus musculus with 6 samples.

Results

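The phagocyte oxidase and the inducible nitric oxide synthase are the enzymes with which macrophages make superoxide and nitric oxide. Their genes were followed here as 7 rows of the TPM table, matched by symbol out of 25124 genes: Cybb, Cyba, Ncf1, Ncf4, Rac1, Rac2 and Nos2. The data come from bone marrow-derived macrophages of 8-week-old wild-type C57BL/6 mice, grown for 7 days with macrophage colony-stimulating factor (M-CSF) at 20 ng/ml. The 3 M0 libraries come from cells that stayed in 20 ng/ml M-CSF without interleukin-4 (IL-4). The 3 M2 libraries come from cells given 10 ng/ml IL-4, a cytokine of alternative macrophage activation, together with 20 ng/ml M-CSF, and both kinds of culture were harvested after 4 h. The labels do not say whether replicates were separate mice or separate dishes, so p-values measure the spread between these libraries, which may be technical. The values are from polyadenylated RNA of whole cultures, in which fewer cells of a type and less RNA per cell cannot be told apart.

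The oxidase is built from a membrane pair and a set of cytosolic proteins. CYBB (gp91phox, also called NOX2) carries electrons from NADPH across the membrane to oxygen, and CYBA (p22phox) holds it in place and offers the docking site for the cytosolic organiser NCF1 (p47phox). NCF4 (p40phox) binds a phosphoinositide of the phagosome membrane, and a Rac GTPase, RAC1 or RAC2, completes the active enzyme. NOS2 makes nitric oxide from arginine and is the textbook enzyme of macrophages activated by interferon-gamma and microbial products, whereas IL-4 is best known for inducing arginase, which uses the same substrate.

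RefSeq promoter sequences were at hand for 3 of the 7 members, in the build GRCm38.p6. The 250 bases before the annotated start are shown for all 3 of these, Cybb, Cyba and Ncf1. Capitals mark a match to one of 3 searched motifs.
Cybb (chrX:9469325-9469574, minus strand): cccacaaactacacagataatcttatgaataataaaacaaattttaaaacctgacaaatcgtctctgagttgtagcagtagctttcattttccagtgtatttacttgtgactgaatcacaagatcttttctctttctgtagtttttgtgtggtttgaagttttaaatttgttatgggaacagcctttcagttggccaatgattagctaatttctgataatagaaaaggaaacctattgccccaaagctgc
Cyba (chr8:122432941-122433190, minus strand): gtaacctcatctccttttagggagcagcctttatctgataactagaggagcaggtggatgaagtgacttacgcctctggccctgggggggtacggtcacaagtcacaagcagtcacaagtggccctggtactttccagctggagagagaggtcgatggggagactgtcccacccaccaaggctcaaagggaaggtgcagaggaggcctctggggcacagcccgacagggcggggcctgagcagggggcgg
Ncf1 (chr5:134229626-134229875, minus strand): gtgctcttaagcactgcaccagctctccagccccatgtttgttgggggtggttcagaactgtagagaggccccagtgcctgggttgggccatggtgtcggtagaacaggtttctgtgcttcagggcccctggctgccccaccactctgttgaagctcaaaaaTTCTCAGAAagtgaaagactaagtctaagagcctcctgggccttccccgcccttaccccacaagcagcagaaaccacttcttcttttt
The motifs, searched on both strands, were GAGGAAG for the myeloid factor PU.1, TTCNNNNGAA for STAT6 and TTCNNNGAA for the interferon-gamma-activated site (GAS). These letters occur in 10.6%, 5.85% and 7.02% of 32851 RefSeq promoter windows of the same 250 bases. The only match was TTCTCAGAA, a GAS match, 88 to 80 bases before the Ncf1 start. Only these letters were searched, so a site of the same factor with other letters would be missed. A match describes the letters of this window, and no binding was measured.

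The deposited TPM (a transcript level scaled for transcript length and library) correspond to 16913185 to 19019896 reads in genes per library. M0 replicate 2 stood apart from its group: the chi-square of its reads against each other M0 library, divided by the degrees of freedom, was 9.52 and 10.7. It was 2.31 between M0 replicates 1 and 3 and 1.54 to 1.73 among M2 libraries. The deviations of M0 replicates 1, 2 and 3 from their mean had Spearman correlations of -0.23, 0.44 and -0.40 with transcript length over 11235 genes. Deviations from a mean of 3 balance each other, so these values do not single out 1 library. Members' values without M0 replicate 2 are given for those that moved most. In TPM most tested genes were lower in M2, with a median log2 fold change of -0.15, and dividing each library by its median-ratio factor moved that median up by 0.15. Changes in TPM are therefore read against the median, and the scaled value is given for each tested member. The cultures carried macrophage markers at high level, with Adgre1 (F4/80) averaging 536 and 534 TPM and Cd68 averaging 1366 and 1495 TPM in the M0 and M2 groups. Of markers of neutrophils, which are also rich in this oxidase, the 12 listed genes summed to 55.9 to 66.1 TPM in M0 and 76.0 to 82.2 TPM in M2. Most of that sum came from genes above 1 TPM: S100a8 averaged 14.6 and 13.1 TPM in the M0 and M2 groups, S100a9 14.97 and 13.9, Mmp8 12.9 and 14.3, Ngp 7.28 and 6.68, and Ltf 2.49 and 2.39. The granule genes Mpo and Elane and the surface marker Ly6g stayed under 0.2 TPM on average in both groups, and the chemokine receptor gene Cxcr2, also below the tested range, had 0.0513 and 0.875 TPM. Csf3r was the 1 gene of 7 tested on that list that passed in TPM, from 6.35 to 25.6 TPM, and after median scaling Mmp8 was higher as well (adjusted p = 0.00543). The part of these transcripts in the members' values was not tested.

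All 6 members in the tested range passed in TPM: Cyba and Ncf4 were higher in M2, and Cybb, Ncf1, Rac1 and Rac2 were lower. The background is high, since 62.9% of the 11235 tested genes passed (17.7% higher, 45.3% lower) by limma-trend at a Benjamini-Hochberg adjusted p under 0.05. After median scaling, where 57.1% of genes passed (28.7% higher, 28.4% lower), the calls of Cyba, Ncf4, Cybb and Ncf1 held and those of Rac1 and Rac2 did not. The same 4 calls held in a fit of the authors' log2-scale values, where 59.1% of genes passed (29.5% higher, 29.6% lower). The groups of 3 libraries did not overlap for any of the 6, as for 69.4% of tested genes.

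**Figure D1:**
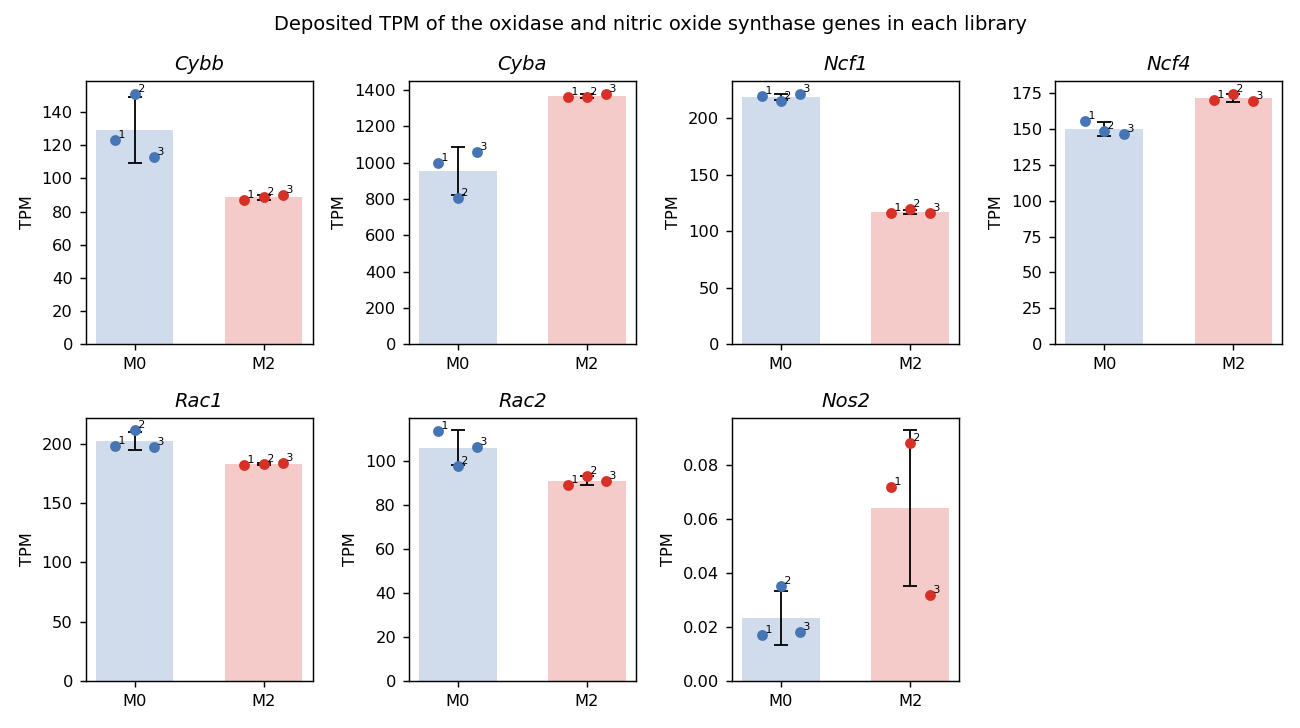
Deposited TPM (y axis, from 0, with its own scale per gene) of the 7 members in M0 and M2 libraries. Points are libraries with their replicate number, bars are means and error bars are SD (n = 3). Cyba and Ncf4 libraries sit higher in M2, those of Cybb, Ncf1, Rac1 and Rac2 sit lower, and Nos2 stays below 0.1 TPM.

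The membrane subunits moved apart. Cybb (NM_007807, mm10 chromosome X, positions 9435254 to 9469324, 13 exons) stood at 123, 151 and 113 TPM in M0 replicates 1 to 3 and at 86.9, 88.9 and 90.1 TPM in M2 replicates 1 to 3. Every M2 library was below every M0 library, and M0 replicate 2 was the highest of the 6. Its mean fell from 129 ± 19.8 to 88.6 ± 1.59 TPM (SD, n = 3 each), a log2 fold change of -0.53 (SE 0.09, limma adjusted p = 0.00130). The change was -0.36 after median scaling (adjusted p = 0.00433) and -0.41 without M0 replicate 2 (adjusted p = 5.3e-05).

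Cyba (NM_007806, chromosome 8, positions 122424771 to 122432940, 6 exons) gave 1001, 807 and 1057 TPM in M0 and 1363, 1361 and 1382 TPM in M2. All M2 libraries were above all M0 libraries, and here M0 replicate 2 was the lowest of the 6. The mean rose from 955 ± 131 to 1369 ± 11.3 TPM, 1.43-fold, with a log2 fold change of 0.53 (SE 0.10, limma adjusted p = 0.00295). It was 0.70 after median scaling (adjusted p = 0.00127) and 0.41 without M0 replicate 2 (adjusted p = 3.2e-06). With the trend of each library on transcript length removed, an alternative chosen after the data had been seen, Cyba was at 0.42 and Cybb at -0.48, and both still passed (adjusted p = 1.5e-04 and 3.8e-04). Cyba has the shortest of the 7 transcripts (751 bases) and Cybb the longest (4735 bases). For both genes the M0 spread, an SD of 15.3% of the mean for Cybb and 13.8% for Cyba, was far above the 1.05% and 0.968% that read counting alone gives, whereas in M2 it was 1.80% and 0.824%.

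The cytosolic subunits also split. Ncf1 had 219, 216 and 222 TPM in M0 and 116, 119 and 116 TPM in M2. The groups lay far apart relative to their spread, and M0 replicate 2 was close to its group. The mean fell from 219 ± 3.004 to 117 ± 1.78 TPM, so that the M0 level was 1.86-fold the M2 level, with a log2 fold change of -0.89 (SE 0.04, limma adjusted p = 1.8e-08). After median scaling it was -0.72 (adjusted p = 7.1e-07), and only 6.19% of tested genes had a lower fold change in TPM. The TPM row for Ncf1 is transcript NR_104383 (chromosome 5, positions 134220053 to 134229625, 1485 bases), whose prefix RefSeq uses for non-coding transcripts. In the authors' deposited table of the comparison the gene is NM_001286037 (2751 bases, 11 exons), with a log2 fold change of -0.76 (adjusted p = 3.2e-52 there). Converted to TPM over that length, Ncf1 would stand at 210 ± 3.08 in M0 and 112 ± 3.63 in M2, so the choice of transcript changed its level little. Of the 1485 bases, 282 overlap exons of Gtf2ird2 on the other strand, which had 4.14 ± 0.102 and 3.63 ± 0.239 TPM in the M0 and M2 groups.

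Ncf4 (NM_008677, chromosome 15, positions 78244811 to 78262580, 10 exons) gave 156, 148 and 146 TPM in M0 and 170, 175 and 170 TPM in M2. The groups were separate but close, with 13.98 TPM between the highest M0 and the lowest M2 library. The mean rose 1.14-fold, from 150.1 ± 5.07 to 171 ± 2.79 TPM, a log2 fold change of 0.19 (SE 0.04, limma adjusted p = 0.00232). It was 0.36 after median scaling (adjusted p = 1.1e-04), and its TPM change lay above that of 81.8% of tested genes.

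The Rac GTPases, which serve many pathways besides the oxidase, changed little. Rac1 (NM_009007, chromosome 5, positions 143505481 to 143527993, 6 exons) had 198, 211 and 198 TPM in M0 and 182, 183 and 184 TPM in M2. M2 libraries were lower by a small margin and agreed closely with each other. Its log2 fold change of -0.14 (SE 0.04, limma adjusted p = 0.0110) was within 0.01 of the median of all tested genes, and it turned to 0.03 after median scaling (adjusted p = 0.585). Without M0 replicate 2 it was -0.11 (adjusted p = 0.00363). Within the Rac1 span, 462 exonic bases are shared with Daglb on the other strand, a lipase gene that rose from 37.4 ± 2.16 to 84.4 ± 2.51 TPM, and its part in the Rac1 value was not tested.

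Rac2 (NM_009008, chromosome 15, positions 78559169 to 78572783, 7 exons), the isoform of blood cells, had 114, 97.9 and 106 TPM in M0 and 89.2, 93.2 and 90.7 TPM in M2. The groups did not overlap, though M0 replicate 2 came within 4.67 TPM of the highest M2 library. Its log2 fold change was -0.21 (SE 0.06, limma adjusted p = 0.00703), -0.05 after median scaling (adjusted p = 0.569) and -0.27 without M0 replicate 2 (adjusted p = 3.6e-04). The authors' deposited table gives Rac1 and Rac2 log2 fold changes of 0.03 and -0.05 (adjusted p = 0.668 and 0.589). Rac1 thus changed sign, and Rac2 missed the threshold, once libraries were centred.

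**Figure D2:**
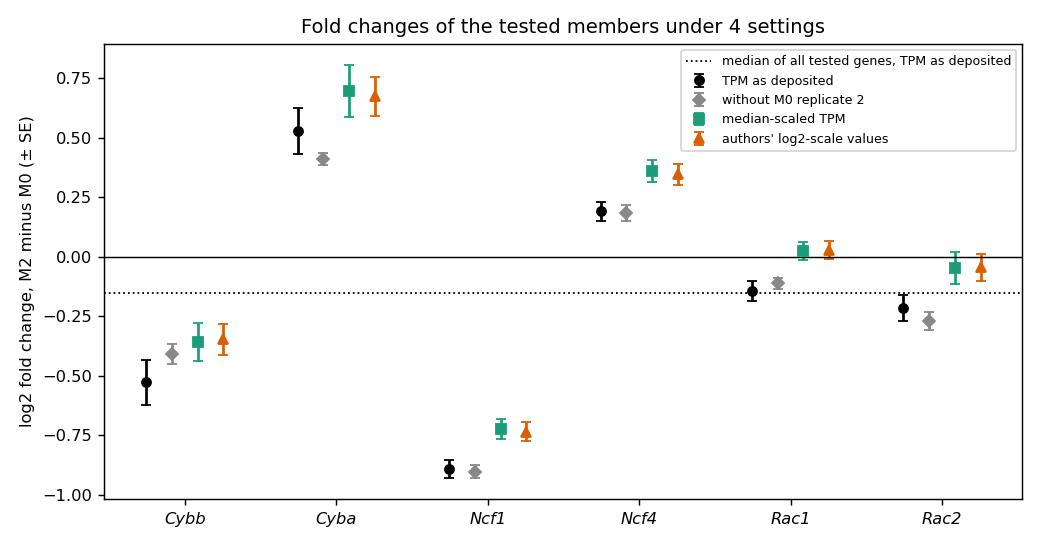
Log2 fold change, M2 minus M0 (y axis, points with SE), of the 6 tested members under 4 settings, with the median of all tested genes in TPM (-0.15) as a dotted line. Cyba and Ncf4 are above 0 and Cybb and Ncf1 below 0 in all 4, while Rac1 and Rac2 lie near the dotted line in TPM and near 0 under median scaling and on the authors' log2-scale values.

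Nos2 was nearly silent in both conditions. Its row (NM_001313922, chromosome 11, positions 78925291 to 78960226, 26 exons) held 0.017, 0.035 and 0.018 TPM in M0 and 0.072, 0.088 and 0.032 TPM in M2, below the tested range. These levels correspond to 1, 2 and 1 reads in M0 and 4, 5 and 2 reads in M2, and the groups overlap. Over the groups 4 reads stood against 11, a ratio of read shares of 2.77 with a 95% exact binomial interval from 0.820 to 11.9, for counting error only, so a difference was not detectable at this depth. The other 6 members had at least 2531 reads in every library. The authors' deposited table, with the longer transcript NM_010927, gives Nos2 a log2 fold change of 0.75 and an adjusted p of 0.207.

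Levels per length put Cyba first in both groups, at rank 48 of the 11235 tested genes in M0 and 32 in M2. In M0 the order below it was Ncf1, Rac1, Ncf4, Cybb, Rac2 and Nos2, and libraries of Ncf4 and Cybb, and of Cybb and Rac2, overlapped. In M2 it was Rac1, Ncf4, Ncf1, Rac2, Cybb and Nos2, where only Rac2 and Cybb overlapped. Ncf1 moved from rank 369 to 722 among tested genes, Cybb from 687 to 1025 and Ncf4 from 566 to 466. Ncf1 lay above Ncf4 in every M0 library and below it in every M2 library.

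Ratios within a library do not depend on how libraries are scaled, and 4 were computed. Cyba exceeded Cybb 8.13-fold, 5.33-fold and 9.36-fold in M0 and 15.7-fold, 15.3-fold and 15.3-fold in M2. The groups were apart, and the log2 difference was 1.06 (0.82 without M0 replicate 2). This ratio sets the shortest member transcript against the longest, and it was not computed with the trend on transcript length removed. Ncf1 to Ncf4 was 1.41, 1.45 and 1.52 in M0 and 0.685, 0.684 and 0.685 in M2, a log2 difference of -1.09 with nearly identical M2 libraries. Ncf1 to Cybb was 1.78, 1.43 and 1.96 in M0 and 1.34, 1.34 and 1.29 in M2, a difference of -0.37 (-0.50 without M0 replicate 2) in which that library lay closest to M2. Rac2 to Rac1 was 0.573, 0.463 and 0.538 in M0 and 0.489, 0.508 and 0.494 in M2, and the groups overlapped (-0.07, exact permutation p = 0.5). The overlap came from M0 replicate 2, and without it the groups were apart, with a difference of -0.16 (exact permutation p = 0.2, the smallest that 2 libraries against 3 allow). For the other 3 ratios the two-sided exact permutation p was 0.1, the smallest that 3 libraries against 3 allow, and 0.133 adjusted over the 4 ratios.

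**Figure D3:**
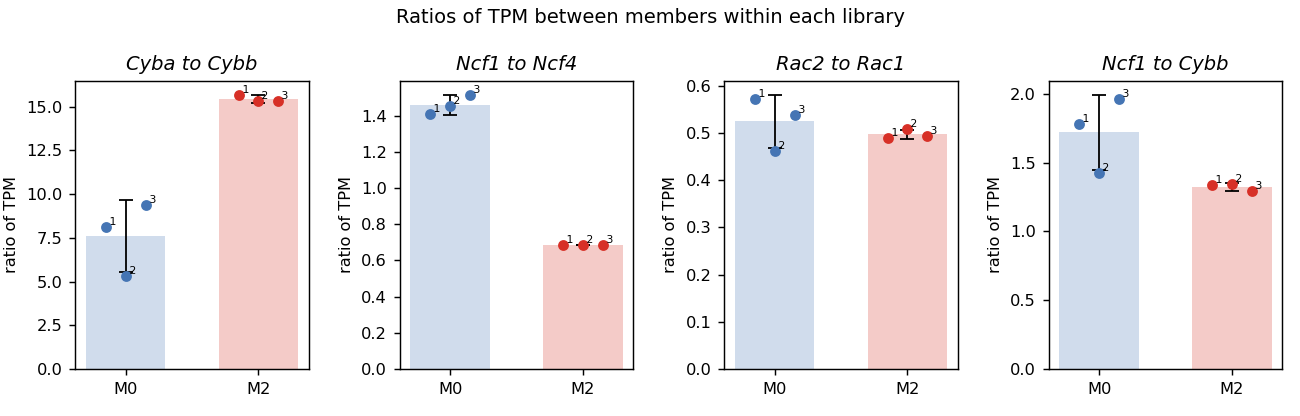
Ratio of TPM between pairs of members within each library (y axis, from 0), with points for libraries, bars for means and error bars for SD (n = 3). Cyba to Cybb is higher in all M2 libraries, Ncf1 to Ncf4 and Ncf1 to Cybb are lower, and Rac2 to Rac1 overlaps between groups.

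Genes with the pattern most like each member were sought among tested genes of similar level (mean TPM within 2-fold), by the root-mean-square distance of log2 values centred on M0 over the 6 libraries. For Cybb they were Eif4g2, Hnrnpa3 and Sh3bgrl (distances 0.047, 0.051 and 0.055 on the log2 scale), and for Ncf1 S100a10, Ykt6 and Sh3bp2 (0.031, 0.031 and 0.043). For Cyba they were the class I gene H2-D1, the clathrin gene Clta and the properdin gene Cfp (0.089, 0.089 and 0.11). Cyba had only 90 candidate genes of similar level, against 768 to 1548 for the other members, so distances are not compared between members. Ncf4 was closest to Tmem106a, Fermt3 and Arf3 (0.025, 0.027 and 0.028). Rac1 was closest to Pabpc1, Rpl7 and Rpl23a (0.012, 0.014 and 0.018), and Rac2 to Aup1, Cdc34 and Bak1 (0.024, 0.026 and 0.029).

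Among 10 tested genes of oxidase partners and activators, 4 rose, 5 fell and 1 did not pass, and 4 rose and 3 fell after median scaling (median log2 fold change -0.16, against -0.15 for all tested genes). Over all tested genes, 17.7% rose and 45.3% fell in TPM, and 28.7% and 28.4% did so after median scaling. Prkcd, a kinase that phosphorylates the p47phox subunit, rose from 129 ± 1.41 to 499 ± 7.88 TPM. Hvcn1, the proton channel that balances the charge moved by the oxidase, rose from 64.7 ± 0.732 to 123 ± 3.49 TPM. Pak1, a kinase that Rac activates, fell from 33.9 ± 2.26 to 15.9 ± 0.437 TPM. Cybc1, a chaperone of the membrane pair, had a log2 fold change of -0.22 that no longer passed after median scaling (-0.05, adjusted p = 0.359).

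Of 14 tested Rac exchange factor genes, including their partners, 4 rose, 7 fell and 3 did not pass (5 and 6 after median scaling; median -0.12). Dock5, Arhgef7 and Elmo1, the partner of DOCK proteins, fell most, with log2 fold changes of -1.33, -1.19 and -1.10. Of 9 genes of Rac GTPase-activating proteins and dissociation inhibitors, 1 rose, 6 fell and 2 did not pass (2 and 4 after median scaling; median -0.25). Beside these lists, 17.7% of all tested genes rose and 45.3% fell in TPM (28.7% and 28.4% after median scaling). Racgap1, which also acts in cell division, Bcr and Srgap2 fell with log2 fold changes of -1.16, -0.58 and -0.50. Among 10 relatives of the members, only Rac3 was in the tested range, and it fell from 5.93 ± 0.775 to 4.05 ± 0.478 TPM. Nox1 had 1.03 ± 0.0682 and 0.639 ± 0.155 TPM, Nos3 0.1197 ± 0.0789 and 0.0677 ± 0.0315 TPM, and Nos1 and Nox4 at most 0.012 TPM on average.

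Genes listed for the supply of substrate and cofactor to nitric oxide synthases were expressed around the near-silent Nos2. The list also holds genes that are not suppliers: Nosip, Nostrin and the arginases Arg1 and Arg2, which compete for the substrate. Both arginases are among the genes counted as rising. Of 16 tested, 4 rose, 5 fell and 7 did not pass (7 and 3 after median scaling; median 0.01). Gch1, the first enzyme of tetrahydrobiopterin synthesis, fell from 18.2 ± 2.22 to 9.44 ± 0.723 TPM (log2 fold change -0.88). Arg1, the arginase that competes for arginine, and Slc7a2, an arginine carrier, had log2 fold changes of 8.63 and 4.57. Slc7a1, another arginine carrier on the list that was named after its value was seen, fell (-0.87, and -0.71 after median scaling). The 4 that rose include Arg2, with 0.604, 1.08 and 0.348 TPM in M0 and 2.23, 2.09 and 1.73 TPM in M2, which was tested only because of its M2 libraries and its call is not read as a result. Of 13 genes of the pathways that induce Nos2, 8 rose, 1 fell and 4 did not pass (9 and 1 after median scaling; median 0.28). Beside these lists, 17.7% of all tested genes rose and 45.3% fell in TPM (median -0.15). After median scaling 28.7% rose and 28.4% fell. Jak2 rose 3.34-fold and Irf1, a factor needed for Nos2 induction, rose 2.35-fold. Nfkb1, an NF-kB subunit gene, rose from 37.1 ± 0.506 to 68.4 ± 0.325 TPM, and the 1 that fell was Myd88, a Toll-like receptor adaptor named after its value was seen, which fell by 0.54 on the log2 scale.

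Of 7 tested myeloid transcription factors known for oxidase genes, 4 rose, none fell and 3 did not pass in TPM and after median scaling (median 0.11). The share of all tested genes that passed was 62.9% in TPM (17.7% higher, 45.3% lower). It was 57.1% after median scaling (28.7% higher, 28.4% lower). Irf1 and Irf8 are among the 4 and were also counted among the genes that rose on the Nos2 induction list. Cebpa rose from 149.6 ± 13.5 to 285 ± 8.54 TPM. Spi1, which encodes PU.1, had 408 ± 33.6 and 391 ± 3.57 TPM, a log2 fold change of -0.06 (limma adjusted p = 0.367) that turned to 0.11 after median scaling (adjusted p = 0.201) and was -0.13 without M0 replicate 2 (adjusted p = 0.00359). Irf8 and Runx1 passed at 0.11 and 0.18 in TPM (adjusted p = 0.0375 and 0.0274) and at 0.28 and 0.34 after median scaling (adjusted p = 5.6e-04 and 5.9e-04). In TPM the Irf8 call was lost without any 1 library other than M0 replicate 2 (0.09 to 0.13), and that of Runx1 without M0 replicate 3 or any M2 library (0.14 to 0.20).

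Of 13 genes that remove superoxide and peroxide, 3 rose, 7 fell and 3 did not pass (4 and 6 after median scaling; median -0.17). Over all tested genes, 17.7% rose and 45.3% fell in TPM, and 28.7% and 28.4% did so after median scaling. Txnrd1 and Prdx1, which reduce thioredoxin and peroxides, fell with log2 fold changes of -0.84 and -0.74. Among those that rose was Sod3, a secreted superoxide dismutase at 0.482 ± 0.145 and 1.69 ± 0.2195 TPM, which was below 1 TPM in every M0 library and entered the tested range through M2 alone, so its call is not read as a result. Of 10 genes listed for the supply of NADPH, the electron donor of both enzymes, 1 rose, 4 fell and 5 did not pass, against 5 and 4 after median scaling (median -0.05). Idh1 rose from 122 ± 9.18 to 191 ± 2.74 TPM, while Me1 and Me2 had log2 fold changes of -0.57 and -0.45. Me2 encodes a malic enzyme that mainly uses NAD+, so its fall is not read as a fall in NADPH supply.

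**Figure D4:**
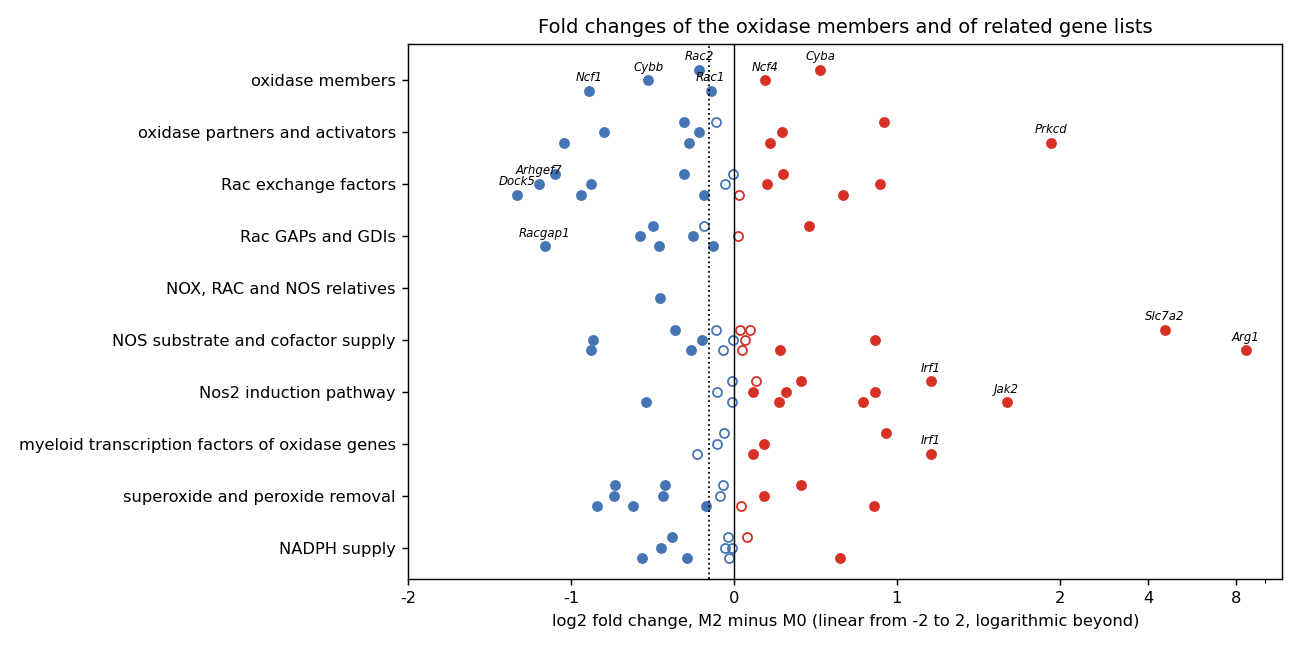
Log2 fold change, M2 minus M0 (x axis, linear from -2 to 2 and logarithmic beyond), of the 6 tested members and of the tested genes of 9 related lists (rows). Points are genes, red above and blue below 0, filled where the adjusted p is under 0.05, and the dotted line is the median of all tested genes (-0.15). Cyba and Ncf1 lie on opposite sides of 0, and Arg1, at 8.63, is farthest to the right.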

How the data were processed

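Per the submitters' processing notes, STAR, bcl2fastq, DESeq2 and HOMER 4.11.1 were used with mm10. Per the file headers, reads in exons were counted with 1 transcript kept per gene, and 4515 genes have different transcripts in the 2 deposited tables. The authors deposited TPM per library, and a comparison table with log2-scale values, a log2 fold change, p-values and adjusted p-values, whose transformation the file headers do not name. The 3 entries shifted by commas were realigned.

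Groups and replicate numbers come from the sample titles. M2 was compared with M0 by limma-trend (version 3.58.1 under R 4.3.3, robust, two-sided) on log2(TPM + 1) for genes with at least 1 TPM in at least 3 libraries, with p-values adjusted over all tested genes. A fold change on this scale understates that of low genes. Reads were recovered from TPM and transcript length (99.8% to 99.9% of nonzero values whole within 0.1 read). Summed over genes, the deposited TPM come to between 542749 and 553186 in a library. Ratios were tested by exact permutation (scipy 1.17.1). The fit was also run on simulated reads with known changes, which held neither an outlying library nor a trend on transcript length. That run therefore cannot tell how the fit handles these. Tables and figures used Python 3.11.15 and matplotlib 3.10.9. Exon counts were taken from GENCODE M21 through RefSeq identifiers.

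The members and lists were chosen with earlier results of these data known. Named genes are all members, up to 3 passing genes per list with the largest change, and 12 genes named whatever their result. Some listed genes are not reported here and were left out of the lists' counts. Genes named as neighbours or markers were added after values were seen. Alternatives were pseudocounts of 0.1 and 5, no filter, median scaling, a replicate block, leaving out each library, limma-voom on recovered reads, the authors' log2-scale values and, added later, removal of the length trend.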

Additional observations from a re-analysis of the deposited data

How the results depend on the processing

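Cybb, Cyba, Ncf1 and Ncf4 kept their direction and passed under every alternative run. The Rac1 log2 fold change became 0.025 after median scaling and 0.028 on the authors' log2-scale values, and Rac2 went to -0.047 and -0.044 there without passing. These settings centre the genes near 0, and they gave 3225 higher and 3195 lower genes (median scaling) and 3318 and 3323 (authors' values), against 1983 and 5088 in TPM. Spi1 turned to 0.11 and 0.11 under the same settings. The Nos2 difference in mean log2(TPM + 1), 0.06, was 0.40 with a pseudocount of 0.1 and 0.012 with a pseudocount of 5. For a gene this low, the difference shrinks as the pseudocount grows. On the authors' values, another scale with the longer transcript NM_010927, the difference was 0.088, and the cause was not tested. Leaving out 1 library gave 1743 to 2217 higher and 4457 to 5239 lower genes, Cybb from -0.62 to -0.41, Cyba from 0.41 to 0.61, Ncf1 from -0.91 to -0.88, Ncf4 from 0.17 to 0.22, Rac1 from -0.16 to -0.11 and Rac2 from -0.27 to -0.16. All 6 still passed. The ratio of Rac2 to Rac1 ranged from -0.16 (without M0 replicate 2) to -0.01 (without M0 replicate 1). Libraries with the same replicate number did not deviate together (correlations of -0.043 to 0.005). This cannot tell whether the samples were paired, since the labels do not say so and a small shared effect could go unseen. With replicate number as a block, 1953 genes were higher and 4963 lower, no member's call changed, and Irf8 no longer passed (adjusted p = 0.0749). Nos2, at 1 to 5 reads per library, is beyond what this depth can compare.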
